A study of Mus musculus with 9 samples.

Results

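The 10 genes described here belong to the ATF4 pathway and the unfolded protein response and were followed through RNA sequencing of mouse cortex: Atf4, Atf5, Ddit3, Trib3, Chac1, Asns, Xbp1, Creld2, Sdf2l1 and Herpud1. They were taken by name from a table of 56748 genes, in which all 10 were found, and all 10 were among the 18093 genes with enough counts to test. The study sequenced 3 groups of 3 biological replicates each as polyadenylated RNA, 9 libraries in all, from wild-type C57BL/6J mice that the labels give as 2 to 3 months old. Reactive cultures were grown from dissected cores of cortical stab wounds in DMEM/F12 with B27 and 10% fetal bovine serum, and the whole culture was collected without a sort. Injured cortex held cells of the lesion core, dissociated with papain and sorted to leave out debris, dead cells and the CD171+ neuronal fraction, and uninjured cortex held intact tissue labelled with the same exclusion of CD171. By the sample labels, lesions were dissected 1 day after injury and the cultures grew for 6 days. The series' own design description puts injured cortex at 3 days, and the cultures at 24 h before dissection with 8 days in vitro, so the times stand unresolved here. The labels do not say whether a library pooled several animals.

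ATF4 is a transcription factor whose protein is made when stress kinases phosphorylate the initiation factor eIF2α, through upstream reading frames that hold back its translation in unstressed cells. It raises genes for amino acid supply and for the response to prolonged stress, a program called the integrated stress response. The unfolded protein response senses misfolded protein in the endoplasmic reticulum (ER) through PERK, which acts on ATF4, through IRE1, which splices Xbp1 mRNA, and through ATF6, which is cut to release a transcription factor. In the brain both are known to be engaged by trauma and ischaemia. Gene counts report neither the translation of ATF4, nor the splicing of Xbp1, nor the cutting of ATF6.

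Total counts per library were 16667883 to 24302770 in the cultures, 20389561 to 21135163 in injured cortex and 12205049 to 18577561 in uninjured cortex. Levels below are CPM, a count relative to library size, scaled with edgeR's TMM factors. A gene is said to rise or fall where edgeR's quasi-likelihood test gave a Benjamini-Hochberg adjusted p under 0.05 over all genes tested. Summed levels of gene lists are CPM on the library total, without those factors. In whole libraries, fewer cells of a type and less RNA per cell cannot be told apart. The groups differed in makeup. The 10 markers of monocytes and macrophages summed to 30835 to 35904 CPM in the cultures, 2709 to 8857 CPM in injured cortex and 557 to 798 CPM in uninjured cortex. Lyz2 carried most of that sum in the cultures, with TMM-scaled means of 43110 CPM there, 4462 CPM in injured and 489 CPM in uninjured cortex, and 4 of the 10 markers rose and 6 fell in cultures against injured cortex (median log2 fold change -1.78). The 10 oligodendrocyte markers summed to 315 to 607 CPM in the cultures, 15952 to 19044 CPM in injured cortex and 27554 to 43484 CPM in uninjured cortex. The 10 neuronal markers summed to 34.4 to 63.7 CPM in the cultures, 55.5 to 129 CPM in injured cortex and 55.5 to 64.4 CPM in uninjured cortex. Injured replicate 3 stood apart from injured replicates 1 and 2, with 5692 CPM over the 10 astrocyte markers against 2518 and 2749 CPM. It had 2709 CPM over the monocyte and macrophage markers (8857 and 5767 CPM) and 1616 CPM over oligodendrocyte precursor markers (627 and 269 CPM). Across genes its log2 CPM correlated at 0.957 and 0.953 with injured replicates 1 and 2, and at 0.948 to 0.954 with uninjured cortex. Without it 4102 genes were called after injury, against 2145 with all 9 libraries. Olfactory and vomeronasal receptor genes, taken by name and summed, reached 182 and 151 CPM in uninjured replicates 2 and 3, while the remaining libraries held 14.4 to 44.1 CPM.

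The promoters of 5 of the 10 genes held a match to an element through which these pathways are known to act. They are shown so that the sequences of 3 genes that moved together (Asns, Trib3 and Chac1), of 1 that moved the other way in the cultures (Herpud1) and of 1 from the ATF6 branch (Creld2) can be set beside their levels. Windows from 250 bases before to 50 bases after each annotated start came from RefSeq on GRCm38.p6, a build other than the GRCm39 to which the submitters aligned, and all 10 genes matched, with 11 windows. A match to TGATGNAA, the core of the element bound by ATF4 with a C/EBP partner, on either strand, lay in Asns, Trib3, Chac1 and Herpud1, and in 3.97% of all 32841 windows of that length. The ER stress element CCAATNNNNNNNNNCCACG, bound by ATF6 with NF-Y, lay in Creld2 and in 0.119% of windows, and its shorter form, ERSE-II, in Herpud1 and in 0.0365%. TGACGTGG, a core to which XBP1 binds, lay in none of the 11 windows and in 0.676% of all. A match says only that these letters stand in the window. The stretches below run from -220 to 29, with the annotated start as 0, 5′ to 3′ on the strand of the gene, and capitals mark the matches.
Asns, chr6:7693180-7693429, minus strand, match at -23 to -16: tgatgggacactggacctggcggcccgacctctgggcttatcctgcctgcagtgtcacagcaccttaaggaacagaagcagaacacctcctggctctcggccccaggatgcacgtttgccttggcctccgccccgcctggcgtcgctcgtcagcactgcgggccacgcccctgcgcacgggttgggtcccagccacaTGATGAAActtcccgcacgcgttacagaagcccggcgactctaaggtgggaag
Trib3, chr2:152344031-152344280, minus strand, match at 14 to 21: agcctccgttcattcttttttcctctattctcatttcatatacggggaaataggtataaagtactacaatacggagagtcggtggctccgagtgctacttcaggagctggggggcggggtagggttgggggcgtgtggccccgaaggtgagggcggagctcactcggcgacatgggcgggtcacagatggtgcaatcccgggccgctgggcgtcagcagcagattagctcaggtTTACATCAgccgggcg
Chac1, chr2:119351022-119351271, plus strand, match at -193 to -186: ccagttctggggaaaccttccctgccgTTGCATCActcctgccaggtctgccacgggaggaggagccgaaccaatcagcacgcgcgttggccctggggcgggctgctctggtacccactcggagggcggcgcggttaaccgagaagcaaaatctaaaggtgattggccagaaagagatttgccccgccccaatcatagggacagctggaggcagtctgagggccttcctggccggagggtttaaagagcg
Herpud1, chr8:94386209-94386458, plus strand, matches at -112 to -105 and -52 to -42: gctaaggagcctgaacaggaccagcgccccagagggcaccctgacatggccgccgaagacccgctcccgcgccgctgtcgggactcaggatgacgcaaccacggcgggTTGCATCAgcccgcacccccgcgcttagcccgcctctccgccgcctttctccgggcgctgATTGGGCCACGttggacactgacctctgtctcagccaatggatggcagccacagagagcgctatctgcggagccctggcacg
Creld2, chr15:88819426-88819675, plus strand, match at -126 to -108: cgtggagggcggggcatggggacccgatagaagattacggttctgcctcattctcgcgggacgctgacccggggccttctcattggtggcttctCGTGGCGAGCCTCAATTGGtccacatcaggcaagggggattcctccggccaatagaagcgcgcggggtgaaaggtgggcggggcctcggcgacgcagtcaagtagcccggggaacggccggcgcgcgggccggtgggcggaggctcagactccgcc

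Across the groups, 3 genes that ATF4 is known to raise, Asns, Trib3 and Chac1, were highest in the cultures, lower in injured cortex and lowest in uninjured cortex, while Atf4 and Ddit3 themselves passed the test in none of the 3 comparisons. After injury, in injured against uninjured cortex, 3 of the 10 genes rose (Asns, Trib3 and Chac1) and the other 7 did not pass, where 8.99% of all genes tested rose and 2.87% fell, 11.9% in all. In cultures against injured cortex, Asns, Trib3, Chac1 and Atf5 rose and Herpud1 fell, where 20.0% of all genes rose and 30.1% fell, 50.1% in all. In cultures against uninjured cortex, the same rises came with those of Creld2 and Sdf2l1 and with the fall of Herpud1, 7 of 10 against 60.5% of all genes (27.5% higher, 33.1% lower). The median log2 fold change of the 10 genes was 0.57 in injured against uninjured cortex, where that of all genes was 0.00, then 0.70 against -0.19 in cultures against injured cortex, and 1.37 against -0.17 in cultures against uninjured cortex. In cultures against injured cortex the libraries of 6 of the 10 genes did not overlap, against 59.7% of all genes. Against uninjured cortex 7 of the 10 did not overlap, against 69.2% of all genes, and in injured against uninjured cortex 3 of 10, against 28.6%. These comparisons share libraries with each other and are not independent. The 10 genes were chosen with earlier results of these data known, so their counts and medians beside all genes are description, not a test. On library totals without TMM, where the median of all genes was -0.79 in cultures against injured cortex and -0.90 against uninjured cortex, Atf4 fell by 1.18 and 0.84 (adjusted p = 0.00395 and 0.0175). Ddit3 fell there by 0.85 and 1.22 (adjusted p = 0.0121 and 0.00142). Of all 18093 genes, 1648 rose and 7854 fell against injured cortex on that scaling. Against uninjured cortex 2534 rose and 8774 fell. The same scaling ended the culture calls of Atf5 (1.01 and 1.50, adjusted p = 0.237 and 0.0856), of Chac1 against injured cortex (1.27, adjusted p = 0.0688) and of Creld2 against uninjured cortex (0.39, adjusted p = 0.182).

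**Figure D1:**
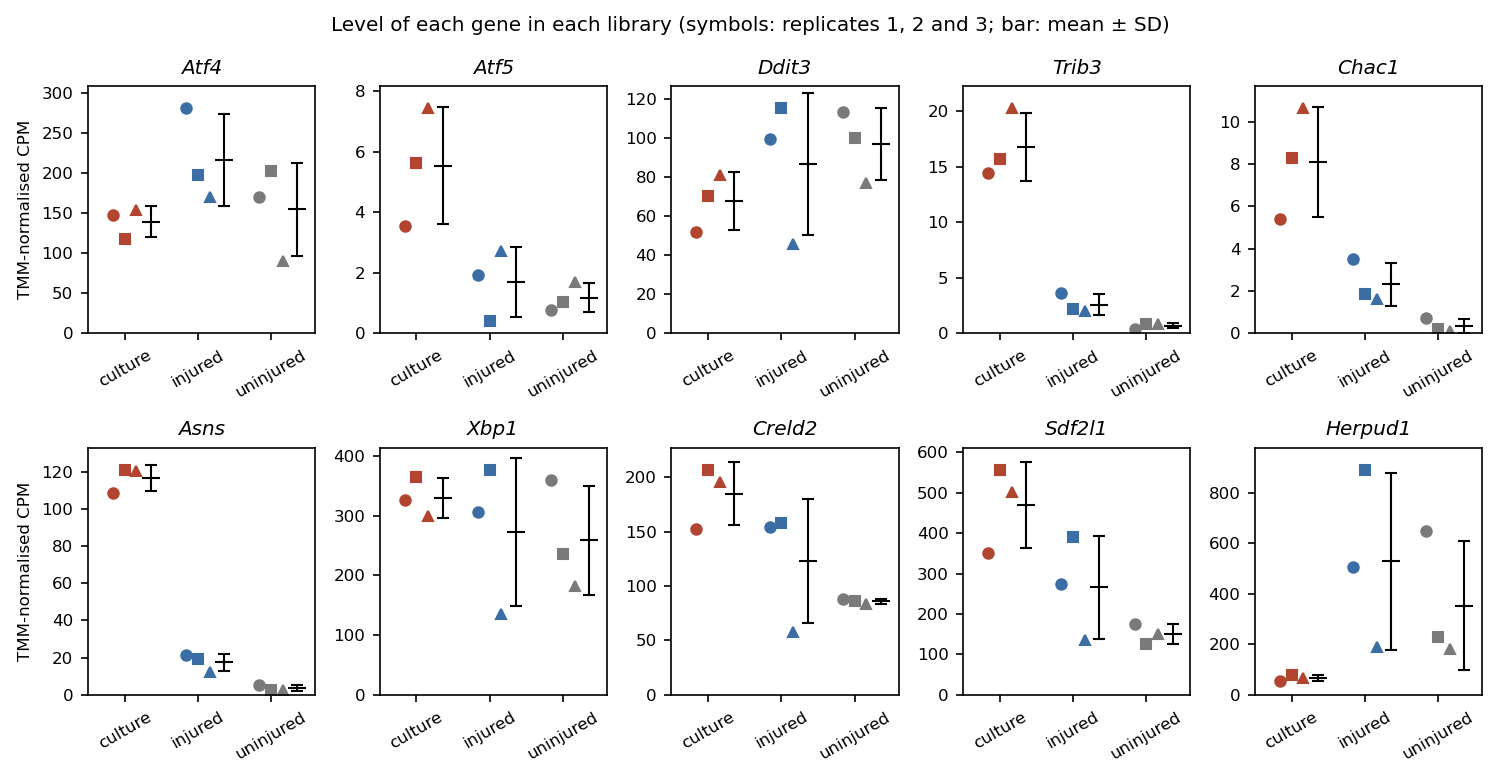
TMM-normalised CPM of the 10 genes (vertical axes, linear from 0) in each library of the reactive cultures, injured cortex and uninjured cortex, with circles, squares and triangles for replicates 1, 2 and 3 and a bar for the mean ± SD of each group. Asns stands at 109 to 121 CPM in the cultures, 12.5 to 21.2 CPM in injured cortex and 2.47 to 5.30 CPM in uninjured cortex, while Atf4 and Ddit3 overlap between the cultures and uninjured cortex.

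Atf4 had 148, 117 and 153 CPM in the 3 cultures, 281, 197 and 169.9 CPM in injured cortex and 170.2, 203 and 90.6 CPM in uninjured cortex. All 3 injured libraries lay above the cultures, and the uninjured libraries overlapped both. The log2 fold change of Atf4 was 0.48 ± 0.30 (SE) in injured against uninjured cortex (adjusted p = 0.338), -0.63 ± 0.30 in cultures against injured cortex (adjusted p = 0.0965) and -0.15 ± 0.30 in cultures against uninjured cortex (adjusted p = 0.683). The decrease in cultures against injured cortex passed without injured replicate 3 (-0.77, adjusted p = 0.0483) and with those groups fitted alone (-0.67, adjusted p = 0.0422). Atf4 mRNA is one layer of this control, since its product is set largely at translation.

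Atf5, a relative of ATF4 that its pathway induces and that is known for the stress response of mitochondria, was at low levels throughout, with 58 to 98 reads in the cultures, 8 to 80 in injured cortex and 14 to 28 in uninjured cortex. It had 3.56, 5.63 and 7.43 CPM in the cultures, 1.93, 0.419 and 2.72 CPM in injured cortex and 0.773, 1.03 and 1.71 CPM in uninjured cortex. Every culture lay above every in vivo library, and the in vivo groups overlapped. Atf5 rose in cultures against injured cortex (1.69 ± 0.57 on the log2 scale, adjusted p = 0.0281) and against uninjured cortex (2.24 ± 0.60, adjusted p = 0.00646), and was not called between the in vivo groups (0.55 ± 0.59, adjusted p = 0.600). The first of these calls was lost without culture replicate 2 (1.68, adjusted p = 0.0638) or 3 (1.43, adjusted p = 0.0981). In GENCODE M21, 82 of 1993 exonic bases of Atf5 (4.11%) overlap Nup62 on the other strand, whose mean was 99.4 CPM in the cultures, 27.2 CPM in injured cortex and 15.4 CPM in uninjured cortex. The strand setting of the counting is not given in the sources used here, so reads of this stretch cannot be assigned to either gene.

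Ddit3 encodes CHOP, a transcription factor that ATF4 raises and that takes part in stress-induced death. It had 52.0, 70.1 and 81.3 CPM in the cultures, 99.8, 115 and 45.7 CPM in injured cortex and 114, 100.0 and 77.0 CPM in uninjured cortex. The lowest value of the 9 belonged to injured replicate 3 and the 3 groups overlapped. Its log2 fold change was -0.16 ± 0.31 in injured against uninjured cortex (adjusted p = 0.799), -0.36 ± 0.31 in cultures against injured cortex (adjusted p = 0.357) and -0.51 ± 0.31 in cultures against uninjured cortex (adjusted p = 0.172). Without injured replicate 3 both culture comparisons passed, at -0.66 (adjusted p = 0.0329) and -0.53 (adjusted p = 0.0406). The value against uninjured cortex also passed when only those groups were fitted (-0.60, adjusted p = 0.0273). On the other strand, Ddit3 shares 68 of 1713 exonic bases with Mars1, a tRNA synthetase gene with means of 70.8, 58.6 and 51.4 CPM in cultures, injured and uninjured cortex.

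Asns encodes asparagine synthetase and is a standard reporter of ATF4 activity. It had 109, 121 and 120.3 CPM in the cultures, 21.2, 19.0 and 12.5 CPM in injured cortex and 5.30, 2.47 and 2.74 CPM in uninjured cortex, with no overlap between any of the groups. The log2 fold change was 2.32 ± 0.30 in injured against uninjured cortex (adjusted p = 4.78e-04), 2.73 ± 0.29 in cultures against injured cortex (adjusted p = 1.52e-05) and 5.06 ± 0.33 in cultures against uninjured cortex (adjusted p = 1.92e-07). These calls were kept under every alternative with at least 2 libraries in each group. Where uninjured replicates 2 and 3 are left out, here and below, the lone uninjured library is assumed to vary like the other groups. The 16 proliferation genes on a list moved along the same order, summing to 1214 to 1364 CPM in the cultures, 544 to 742 CPM in injured cortex and 150.3 to 184 CPM in uninjured cortex. Their part in the level of Asns was not tested.

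Trib3, a pseudokinase that ATF4 and CHOP raise and that restrains AKT, had 14.4, 15.8 and 20.3 CPM in the cultures, 3.63, 2.15 and 1.97 CPM in injured cortex and 0.387, 0.810 and 0.854 CPM in uninjured cortex. The groups did not overlap. It rose in injured against uninjured cortex by 1.90 ± 0.39 on the log2 scale (adjusted p = 0.00783), in cultures against injured cortex by 2.70 ± 0.36 (adjusted p = 8.48e-05) and in cultures against uninjured cortex by 4.60 ± 0.41 (adjusted p = 1.99e-06). With uninjured replicates 2 and 3 left out, the increase after injury was 2.70 and missed the threshold (adjusted p = 0.0519), as it did with the in vivo groups fitted alone (1.89, adjusted p = 0.0558).

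Chac1 encodes an enzyme that breaks down glutathione and lies downstream of ATF4. It rested on few reads, 88 to 144 in the cultures, 35 to 74 in injured cortex and 2 to 13 in uninjured cortex. Its level was 5.40, 8.28 and 10.6 CPM in the cultures, 3.49, 1.83 and 1.60 CPM in injured cortex and 0.718, 0.180 and 0.122 CPM in uninjured cortex, again with no overlap. It rose by 2.74 ± 0.60 on the log2 scale in injured against uninjured cortex (adjusted p = 0.0117), by 1.81 ± 0.52 in cultures against injured cortex (adjusted p = 0.0121) and by 4.56 ± 0.62 in cultures against uninjured cortex (adjusted p = 6.19e-05). The call after injury was lost without injured replicate 1 (2.29, adjusted p = 0.0547), without uninjured replicate 2 (2.39, adjusted p = 0.0641) and in the absence of both uninjured replicates 2 and 3 (1.66, adjusted p = 0.310), and with the in vivo groups fitted alone (2.72, adjusted p = 0.0522). The call of cultures against injured cortex was lost without culture replicate 3 (1.58, adjusted p = 0.0546).

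**Figure D2:**
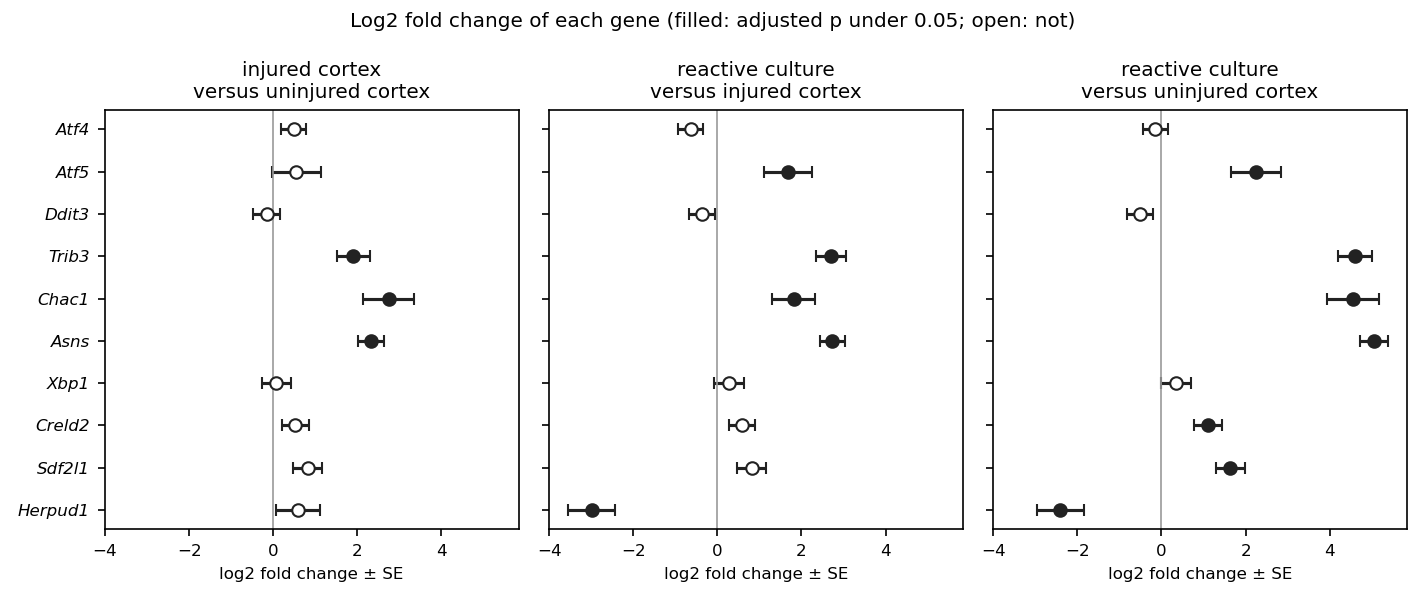
Log2 fold change ± SE (horizontal axis, edgeR) of the 10 genes in injured against uninjured cortex, cultures against injured cortex and cultures against uninjured cortex, from left to right, with filled points for an adjusted p under 0.05. Asns, Trib3 and Chac1 are filled and right of 0 in each panel, Herpud1 is filled at -2.99 and -2.41 in the culture panels, and Atf4, Ddit3 and Xbp1 are open throughout.

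Xbp1, the transcription factor whose mRNA is spliced by IRE1, had 326, 365 and 299 CPM in the cultures, 306, 377 and 135 CPM in injured cortex and 359, 235 and 182 CPM in uninjured cortex. The lowest library was injured replicate 3, and the range of each in vivo group took in most of the range of the cultures. No comparison was called: the log2 fold change was 0.08 ± 0.35 in injured against uninjured cortex (adjusted p = 0.922), 0.27 ± 0.35 in cultures against injured cortex (adjusted p = 0.537) and 0.35 ± 0.35 in cultures against uninjured cortex (adjusted p = 0.405). The sign of each of these values turned under at least 1 alternative, so no direction is given. Xbp1 is also high in plasma cells. The 10 B cell and plasma cell markers summed to 84.6 to 132 CPM in the cultures, where 3 to 5 of them were at 0. They summed to 105 to 158 CPM in injured cortex and 88.2 to 90.7 CPM in uninjured cortex. Of the 9 that could be tested, 8 fell in cultures against injured cortex and 7 against uninjured cortex, and Sdc1, with means of 132, 6.99 and 0.865 CPM in cultures, injured and uninjured cortex, rose in both (4.25 and 7.27). Jchain, which plasma cells express, was at 0 CPM in all cultures, against means of 20.7 CPM in injured and 5.89 CPM in uninjured cortex.

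Creld2 and Sdf2l1 encode ER-resident proteins that the ATF6 and XBP1 branches raise, a folding factor with disulfide isomerase activity and a partner of the ER chaperone BiP. Creld2 had 152, 207 and 196 CPM in the cultures, 155, 158 and 57.5 CPM in injured cortex and 87.8, 86.3 and 83.6 CPM in uninjured cortex. Injured replicates 1 and 2 lay beside the lowest culture, and injured replicate 3 lay below all uninjured libraries. It rose in cultures against uninjured cortex (log2 fold change 1.11 ± 0.32, adjusted p = 0.0106), with 0.59 ± 0.32 against injured cortex (adjusted p = 0.142) and 0.52 ± 0.32 in injured against uninjured cortex (adjusted p = 0.334). With uninjured replicates 2 and 3 left out, the value against uninjured cortex was 1.07 and missed the threshold (adjusted p = 0.135).

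Sdf2l1 had 349.8, 556 and 503 CPM in the cultures, 275, 389 and 135 CPM in injured cortex and 175, 126 and 151 CPM in uninjured cortex. The cultures lay above all uninjured libraries and overlapped injured replicate 2. It rose in cultures against uninjured cortex (1.64 ± 0.35, adjusted p = 0.00168), a call lost when uninjured replicates 2 and 3 were both omitted (1.41, adjusted p = 0.0725). It had 0.82 ± 0.34 in cultures against injured cortex (adjusted p = 0.0649), which passed without injured replicate 2 (1.20, adjusted p = 0.0132), and also when all 9 libraries were tested in DESeq2 (0.86, adjusted p = 0.0372) or limma-voom (0.90, adjusted p = 0.0483). Between injured and uninjured cortex the value was 0.82 ± 0.34 (adjusted p = 0.151). With no filter on low counts both comparisons passed, at 0.81 (adjusted p = 0.0193) and 0.85 (adjusted p = 0.0334). Without injured replicate 3, Creld2 rose after injury by 0.84 (adjusted p = 0.00807) and Sdf2l1 by 1.12 (adjusted p = 0.00733).

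Herpud1 encodes an ER membrane protein that joins the machinery for degrading misfolded ER proteins. It had 55.5, 76.9 and 67.3 CPM in the cultures, 507, 892 and 189.6 CPM in injured cortex and 648, 228 and 183 CPM in uninjured cortex. All 3 cultures lay below all 6 in vivo libraries, which ranged widely within each group. It fell by 2.99 ± 0.57 on the log2 scale in cultures against injured cortex (adjusted p = 0.00108) and by 2.41 ± 0.56 against uninjured cortex (adjusted p = 0.00279), calls kept under all alternatives run. Between injured and uninjured cortex its value was 0.59 ± 0.53 (adjusted p = 0.526). Herpud1 was the 1 gene of the 10 that fell in a culture comparison. The promoter window shown above held a match to the ATF4 core and 1 to the short ER stress element. Its relative Herpud2 had means of 60.4 ± 10.6, 54.1 ± 8.77 and 51.3 ± 8.85 CPM (SD, n = 3) in cultures, injured and uninjured cortex and was called in no comparison.

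Handling differed between the groups: the in vivo cells were dissociated and sorted, and the cultures were not sorted. A list of 17 immediate early genes, which dissociation can raise, summed to 979 to 1029.5 CPM in the cultures, 13428 to 15931 CPM in injured cortex and 5712 to 17894 CPM in uninjured cortex. In cultures 16 of the 17 fell against injured cortex and 15 of 17 against uninjured cortex, with medians of -3.35 and -3.04. Among all genes, 30.1% and 33.1% fell there. Within uninjured cortex, replicate 1 had the highest sum (17894 CPM) and the highest Herpud1, and replicate 3 the lowest of both (5712 CPM). Within injured cortex, replicate 2 was highest in both and replicate 3 lowest in both. Ddit3, Xbp1 and Creld2 had the same order of replicates as the sum in both in vivo groups. Creld2 differed little between the uninjured libraries (83.6 to 87.8 CPM) and was higher in the cultures than there. Atf4 was also lowest in replicate 3 of each, but highest in injured replicate 1 (281 CPM) and uninjured replicate 2 (203 CPM). Asns was higher in the cultures than in the in vivo groups. Its lowest injured level (replicate 3, 12.5 CPM) and highest uninjured level (replicate 1, 5.30 CPM) stood in the same libraries as those of the sum. The order of its other replicates differed from that of the sum. The part of handling in the levels of Herpud1, Ddit3, Xbp1, Creld2, Atf4 and Asns was not tested.

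**Figure D3:**
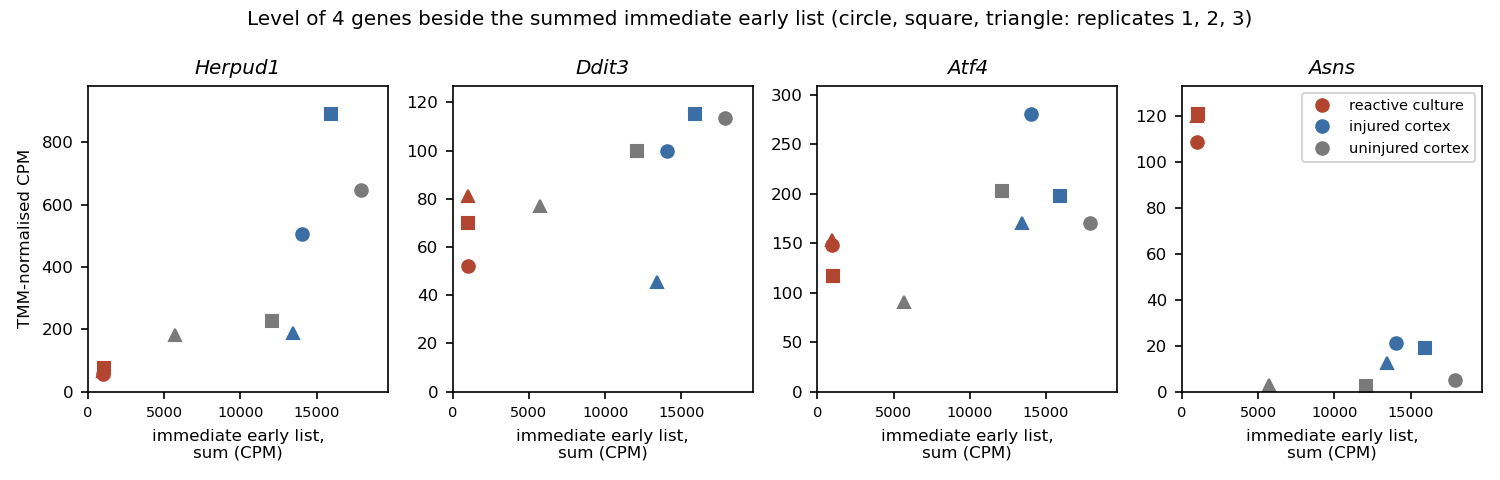
TMM-normalised CPM of Herpud1, Ddit3, Atf4 and Asns (vertical axes, from 0) in each library beside the summed immediate early list in CPM of the library total (horizontal axes), with red for cultures, blue for injured cortex and grey for uninjured cortex, and circle, square and triangle for replicates 1, 2 and 3. The 3 cultures sit at the left with Herpud1 at 55.5 to 76.9 CPM and Asns at 109 to 121 CPM, and the in vivo libraries spread to the right.

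Most genes on a list of sensors and regulators of these pathways were not called. Of 12 genes for sensors, ATF6-cutting proteases, eIF2α, its kinases and its phosphatase subunits, 1 rose in injured against uninjured cortex (median log2 fold change 0.33). In cultures 1 rose and 2 fell against injured cortex (median 0.13), and 1 rose and 1 fell against uninjured cortex (median 0.27). Among all genes, 11.9% were called after injury, 50.1% in cultures against injured cortex and 60.5% against uninjured cortex. After injury 2 rose and 1 fell without injured replicate 3, and 0 were called with uninjured replicates 2 and 3 omitted or without injured replicate 1 or uninjured replicate 2. On library totals, 1 rose and 4 fell in cultures against injured cortex, and 1 rose and 3 fell against uninjured cortex. Over all 18093 genes that scaling gave 1648 higher and 7854 lower, and 2534 higher and 8774 lower. Eif2ak3, which encodes PERK, Ern1, which encodes IRE1, and Atf6 were called in no comparison. Atf6 had means of 25.7 ± 6.20, 23.1 ± 2.73 and 17.5 ± 2.78 CPM (SD, n = 3) in cultures, injured and uninjured cortex. Eif2s1 and Ppp1r15a were called in both culture comparisons, and the kinase gene Eif2ak2, which encodes PKR, rose after injury (1.32, adjusted p = 0.00730) and fell in cultures against injured cortex (-0.75, adjusted p = 0.0330). Both calls of Eif2ak2 were lost without injured replicate 1 (0.98 and -0.43, adjusted p = 0.0530 and 0.201), the first also without uninjured replicate 2 (1.16, adjusted p = 0.0502), and the second without any 1 of the cultures (adjusted p = 0.0735 to 0.1000). Eif2s1, eIF2α itself, averaged 386 ± 42.0 CPM in the cultures, 144 ± 62.0 CPM in injured cortex and 81.2 ± 17.9 CPM in uninjured cortex. It rose in cultures by 1.42 against injured cortex (adjusted p = 0.00302) and by 2.25 against uninjured cortex (adjusted p = 1.03e-04). Ppp1r15a, the stress-induced subunit GADD34 that reverses that phosphorylation, averaged 75.5 ± 10.7 CPM in the cultures, 733 ± 361 CPM in injured cortex and 414 ± 365 CPM in uninjured cortex. Its log2 fold changes were -3.28 (adjusted p = 6.74e-04) and -2.46 (adjusted p = 0.00265). Ppp1r15a was counted on this list and not among the targets below.

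Among 29 other known targets of ATF4 or CHOP, 5 rose and none fell in injured against uninjured cortex, 8 rose and 9 fell in cultures against injured cortex, and 12 rose and 6 fell in cultures against uninjured cortex. Their medians were 0.75, -0.07 and 0.39. The 5 that rose after injury stand beside 8.99% of all genes, and the culture counts, 17 and 18 of 29, beside 50.1% and 60.5%. On library totals, 1648 of all 18093 genes rose and 7854 fell against injured cortex, and 2534 rose and 8774 fell against uninjured cortex. Of these targets, 5 rose and 13 fell against injured cortex, and 11 rose and 10 fell against uninjured cortex. After injury the count was 12 (11 higher, 1 lower) without injured replicate 3, 2 to 9 with 1 of the other libraries left out, and 0 by the same edgeR test with uninjured replicates 2 and 3 left out, where the lone uninjured library is assumed to vary like the other groups. The translation repressor Eif4ebp1 averaged 221 ± 38.2 CPM in the cultures, 70.2 ± 28.3 CPM in injured cortex and 23.6 ± 3.58 CPM in uninjured cortex. It rose by 1.57 after injury (adjusted p = 0.00547) and by 3.22 in cultures against uninjured cortex (adjusted p = 4.98e-06). Aldh18a1, of proline synthesis, rose by 1.64 after injury (adjusted p = 0.00156). Without uninjured replicates 2 and 3 the injury values of Eif4ebp1 and Aldh18a1 were 1.63 and 1.36 and missed the threshold (adjusted p = 0.135 and 0.112). Ero1a, an oxidase that serves disulfide formation, rose by 1.85 in cultures against injured cortex (adjusted p = 1.55e-04).

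Targets that fell in the cultures included Vldlr, a lipoprotein receptor, at 4.67 ± 1.05 CPM in the cultures, 38.3 ± 14.6 CPM in injured cortex and 49.5 ± 7.88 CPM in uninjured cortex (log2 fold changes -3.03 and -3.40, adjusted p = 7.90e-06 and 2.08e-06). The amino acid transporter gene Slc38a2 had -1.76 against injured cortex (adjusted p = 7.32e-05). The serine synthesis enzyme Phgdh, which astrocytes express strongly, averaged 85.1 ± 12.1 CPM in the cultures, 275 ± 16.04 CPM in injured cortex and 331 ± 70.2 CPM in uninjured cortex. It fell by 1.69 against injured cortex (adjusted p = 9.15e-05) and by 1.96 against uninjured cortex (adjusted p = 1.95e-05). Psat1 and Psph, the later enzymes of the same route, were chosen after their values were seen; they fell by 1.31 and 0.51 against injured cortex (adjusted p = 4.98e-04 and 0.0381). The 10 astrocyte markers summed to 72.7 to 127 CPM in the cultures, 2518 to 5692 CPM in injured cortex and 4638 to 7774 CPM in uninjured cortex. All 10 fell in cultures in both comparisons, and their part in the serine genes was not tested.

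Cytosolic tRNA synthetase genes, which supply charged tRNA and are among the genes ATF4 raises, rose in 10 of 12 cases in cultures against uninjured cortex and in 6 of 12 against injured cortex, with medians of 1.02 and 0.56 and none lower. By the same test 27.5% and 20.0% of all genes rose there, and 8.99% after injury. After injury 2 of 12 were called higher (median 0.44), but 0 or 1 with any 1 library left out, and 0 with upper-quartile factors or with uninjured replicates 2 and 3 omitted. Tars, for threonine, averaged 106 ± 10.2 CPM in the cultures, 47.7 ± 14.0 CPM in injured cortex and 33.1 ± 9.88 CPM in uninjured cortex (log2 fold changes 1.16 against injured and 1.68 against uninjured cortex, adjusted p = 0.00317 and 1.92e-04). Without TMM scaling, on library totals alone, 4 of the 12 rose in cultures against uninjured cortex and 1 against injured cortex. Of all 18093 genes, 2534 and 1648 rose on that scaling.

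Many genes of the folding machinery of the ER rose in the cultures. Of 20 ER chaperones and folding enzymes, 15 rose in cultures against uninjured cortex and 8 against injured cortex, with medians of 1.17 and 0.71 and none lower. The shares of all genes that rose were 27.5% and 20.0% there and 8.99% after injury. The thioredoxin-domain protein Txndc5 averaged 214 ± 22.0 CPM in the cultures, 64.7 ± 14.6 CPM in injured cortex and 47.6 ± 7.76 CPM in uninjured cortex (1.73 and 2.17, adjusted p = 7.15e-05 and 8.13e-06). P4hb, protein disulfide isomerase, averaged 784 ± 121, 313 ± 42.0 and 203 ± 35.0 CPM in the same groups (1.32 and 1.95, adjusted p = 8.38e-04 and 3.59e-05). Hspa5, which encodes BiP and is the usual marker of the unfolded protein response, had 2289 ± 206 CPM in the cultures, 1874 ± 1083 CPM in injured cortex and 1037 ± 589 CPM in uninjured cortex. It was called in no comparison (0.29 and 1.14 in cultures against injured and uninjured cortex, adjusted p = 0.645 and 0.0646). In injured against uninjured cortex, edgeR called 0 of the 20 (5 at an unadjusted p under 0.05, and 0 with DESeq2 or limma-voom), and 8 without injured replicate 3. With library totals alone, 2534 of all 18093 genes rose and 8774 fell against uninjured cortex, and 1648 rose and 7854 fell against injured cortex. Of the 20 genes, 8 rose and 3 fell there in cultures against uninjured cortex, and 2 and 2 against injured cortex. Against injured cortex 4 rose without culture replicate 2, and 4 rose and 1 fell without culture replicate 1.

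**Figure D4:**
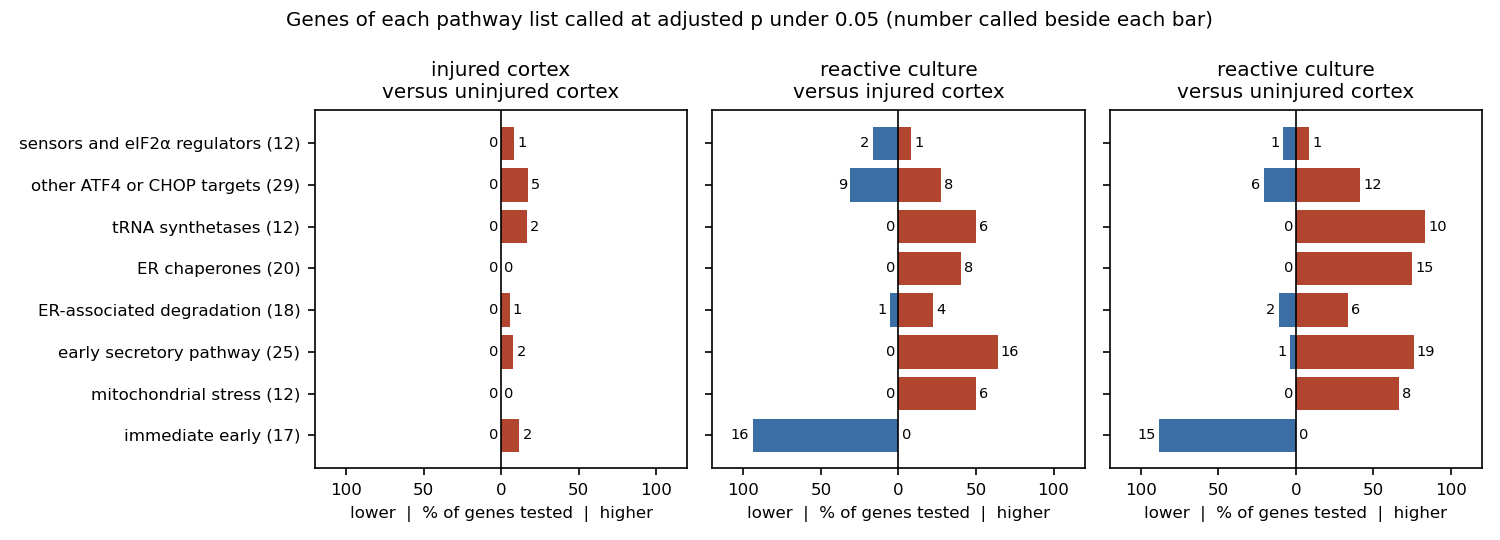
Share of the tested genes of 8 lists that were called higher (red, to the right) or lower (blue, to the left) in injured against uninjured cortex, cultures against injured cortex and cultures against uninjured cortex, with the number called beside each bar and the number tested in brackets. Secretory, chaperone and synthetase genes lie to the right in the culture panels (19 of 25, 15 of 20 and 10 of 12 against uninjured cortex), the immediate early genes to the left, and the other targets of ATF4 or CHOP on both sides.

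ER translocation and early secretory genes, many of them targets of XBP1, rose in 19 of 25 cases and fell in 1 in cultures against uninjured cortex, and rose in 16 against injured cortex, with medians of 1.09 and 0.76. Over all genes, 27.5% and 20.0% rose in these comparisons, and 8.99% after injury. On library totals 2534 of all 18093 genes rose and 8774 fell against uninjured cortex, and 1648 rose and 7854 fell against injured cortex. The counts of this list were then 10 higher and 1 lower, and 7 higher and 1 lower. After injury 2 were called higher, 4 without injured replicate 3, 0 or 1 with 1 of the other libraries left out, and 0 on library totals or with upper-quartile factors. Kdelr3, a receptor that returns ER proteins from the Golgi, averaged 50.2 ± 1.80 CPM in the cultures, 2.61 ± 1.16 CPM in injured cortex and 3.96 ± 0.957 CPM in uninjured cortex (4.27 and 3.67, adjusted p = 1.06e-06 and 1.71e-06). Sec24d, a coat protein of vesicles that leave the ER, averaged 66.1 ± 18.8, 14.6 ± 3.76 and 7.68 ± 0.366 CPM in the same groups (2.18 and 3.10, adjusted p = 3.65e-05 and 1.82e-06). The 10 fibroblast markers, a cell type with a large secretory load, summed to 202 to 459.7 CPM in the cultures, 51.5 to 215 CPM in injured cortex and 53.4 to 64.0 CPM in uninjured cortex. By the test 8 of the 10 were higher in each culture comparison, and 1 was lower against injured cortex. Their part in these genes was not tested. With uninjured replicates 2 and 3 left out, fewer of the target, synthetase, secretory and chaperone genes rose in cultures against uninjured cortex. Fewer of all genes rose there too, and the lone uninjured library of that fit has no spread of its own.

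Of the genes of ER-associated degradation, the process in which Herpud1 takes part, 6 of 18 rose and 2 fell in cultures against uninjured cortex, 4 rose and 1 fell against injured cortex, and 1 rose after injury, with medians of 0.34, 0.34 and 0.04. The shares of all genes called in the same comparisons were 60.5%, 50.1% and 11.9%. On library totals 2534 of all 18093 genes rose and 8774 fell against uninjured cortex, and 1648 rose and 7854 fell against injured cortex. Of this list 2 rose and 6 fell there against uninjured cortex, and none rose and 5 fell against injured cortex. Against injured cortex, 0 were called without injured replicate 1, 3 without injured replicate 3 and 1 or 2 with 1 of the cultures left out. Against uninjured cortex 3 rose and 1 fell without uninjured replicate 3, and 2 rose and 1 fell with uninjured replicates 2 and 3 omitted. After injury 3 rose without injured replicate 3, and none without injured replicate 2 or uninjured replicate 2 or 3. Edem1, which hands glycoproteins to degradation, averaged 375 ± 31.3 CPM in the cultures, 213 ± 97.8 CPM in injured cortex and 96.5 ± 5.84 CPM in uninjured cortex and rose by 1.96 in cultures against uninjured cortex (adjusted p = 1.30e-04). Of 12 mitochondrial chaperones and proteases, the genes that ATF5 is known to serve, 8 rose in cultures against uninjured cortex and 6 against injured cortex, with medians of 0.90 and 0.56. By the same test 27.5% and 20.0% of all genes rose. On library totals 3 rose and 2 fell against uninjured cortex, and 3 rose against injured cortex. The mitochondrial chaperone gene Hspa9 averaged 398 ± 18.2 CPM in the cultures, 135 ± 24.5 CPM in injured cortex and 108 ± 16.8 CPM in uninjured cortex (1.56 and 1.88, adjusted p = 1.30e-04 and 2.14e-05).

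The genes whose centred log2 profile over the 9 libraries lay nearest to that of Atf4 were Tuba1a, Exoc6 and Rbck1, with root mean square differences of 0.18, 0.20 and 0.20 on the log2 scale. Nearest to Xbp1 were Tmem120b, Tubd1 and Hspa8, at 0.11, 0.11 and 0.12. These ranks were taken among the 9102 genes that averaged 10 CPM or more, after the members were left out. So likeness between members was not ranked, and the ranks describe likeness in these libraries alone.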

How the data were processed

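The authors deposited raw gene counts for 9 libraries; the submitters' processing notes name HISAT2 and GRCm39, without a version. Which tool counted reads, with what strand setting and annotation, is not given in the sources used here. Of 56748 genes, 19741 had 0 counts throughout. A symbol shared by several genes (77 symbols) went to the gene with the highest total. Of the list genes, 12 were matched through RefSeq synonyms and 1 was not matched.

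Counts were tested in R 4.3.3 with edgeR 4.0.16: filterByExpr (18093 genes kept), TMM scaling, and a quasi-likelihood fit of 1 mean per group to all 9 libraries (6 residual degrees of freedom), and Benjamini-Hochberg adjustment over all genes. The fit was run on simulated data with far fewer changed genes than the culture comparisons called, so that run did not test the scaling used there. Alternatives used DESeq2 1.42.0 and limma 3.58.1 (voom), other scalings, filters and subsets of libraries. Precision for Chac1, Trib3 and Atf5 is limited by their counts.

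The members and lists were chosen with earlier results of these data known. Named genes were the 10 members, up to 3 called genes per list and comparison with the smallest adjusted p, with up to 2 in the other direction, and the 3 genes nearest to Atf4 and Xbp1. Herpud2, Hspa5, Eif2ak3, Ern1, Atf6, Psat1, Psph, Nup62, Mars1, Jchain, Lyz2, Sdc1 and Acta2 stand outside that rule. Of the lists fixed, those for heat shock, microglia, neutrophils, oligodendrocyte precursors, endothelial and mural cells stand among the other observations. Where nothing ties a library to an animal, p-values measure only the spread between these libraries. Promoters came from RefSeq on GRCm38.p6 and exon overlaps from GENCODE M21.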

Additional observations from a re-analysis of the deposited data

How the results depend on the processing

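Of 600 alternative values for the 30 fold changes of the 10 genes, 553 kept direction and call, 15 lost the call, 17 gained one and 15 turned sign, all 15 in values that were not called; where a sign turned the cause was not tested. In injured against uninjured cortex, Xbp1 was -0.062 with upper-quartile factors, -0.13 on library totals and -0.41 without both uninjured replicates 2 and 3, and with 1 library left out it ranged from -0.22 to 0.40, turning sign without injured replicate 1 or 2 or uninjured replicate 2 or 3. Herpud1 was -0.30 without uninjured replicates 2 and 3 and ranged from -0.014 (without injured replicate 2) to 1.38 with 1 library left out. Ddit3 ranged from -0.41 to 0.13 (without injured replicate 3). In cultures against injured cortex, Xbp1 was -0.21 on library totals and ranged from -0.045 (without injured replicate 3) to 0.59. In cultures against uninjured cortex, Xbp1 was -0.35 on library totals and -0.13 without uninjured replicates 2 and 3, and Atf4 ranged from -0.43 to 0.083 (without uninjured replicate 2).

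The number of the 10 genes called was 3, 5 and 7 in injured against uninjured cortex, cultures against injured cortex and cultures against uninjured cortex. It was 1 in the first comparison with those groups fitted alone or without uninjured replicates 2 and 3, and ranged from 2 to 5, 3 to 7 and 7 to 8 with 1 library left out. Over all genes, 2145, 9057 and 10954 were called. After injury the count was 1369 with the groups alone, 462 without uninjured replicates 2 and 3, 3160 with no filter, 3163 with DESeq2 and 974 to 4102 with 1 library left out. The culture comparisons ranged from 7152 to 9330 and from 9551 to 12147 with 1 library left out, and the second was 6997 without uninjured replicates 2 and 3. With a replicate block the counts were 2203, 9096 and 11060 genes and 3, 6 and 7 of the 10, with Sdf2l1 gained in cultures against injured cortex (0.88, adjusted p = 0.0499); same-numbered libraries correlated at -0.18 to 0.46 across genes, so the numbers were not read as pairing. Low counts limit Chac1, Trib3 and Atf5.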

Other observations

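Among 10 heat shock genes, 4 rose and 3 fell in cultures against uninjured cortex, and 2 rose and 3 fell against injured cortex. Of all genes, 60.5% and 50.1% were called there. Hspa1a, an inducible cytosolic chaperone, had log2 fold changes of -5.30 against injured and -5.31 against uninjured cortex, while Hspb1, a small heat shock protein gene, had 2.10 and 2.31. In injured against uninjured cortex edgeR called 0 of the 10, with 1 at an unadjusted p under 0.05 and 0 by DESeq2 or limma-voom, and 2 without injured replicate 3. On library totals, 2 rose and 4 fell in cultures against uninjured cortex, and 1 rose and 4 fell against injured cortex. Over all 18093 genes that scaling gave 2534 higher and 8774 lower, and 1648 higher and 7854 lower.

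The resident and infiltrating cell types differed as follows. The 10 microglial markers summed to 1090 to 1605 CPM in the cultures, 8934 to 17618 CPM in injured cortex and 13646 to 18970 CPM in uninjured cortex. The 10 neutrophil markers summed to 139 to 167 CPM in the cultures, 598 to 668 CPM in injured cortex and 232 to 387 CPM in uninjured cortex. The 8 markers of oligodendrocyte precursors summed to 31.9 to 48.7 CPM in the cultures, 269 to 1616 CPM in injured cortex and 514 to 715 CPM in uninjured cortex. Endothelial markers summed to 213 to 227 CPM in the cultures, 317 to 693 CPM in injured cortex and 284 to 689 CPM in uninjured cortex. Markers of pericytes and vascular smooth muscle summed to 2539 to 2817 CPM in the cultures, 509 to 779 CPM in injured cortex and 982 to 2227 CPM in uninjured cortex. Acta2 carried the sum in the cultures, with TMM-scaled means of 3425 CPM there, 40.4 CPM in injured and 73.6 CPM in uninjured cortex, while 4 of these markers rose and 5 fell in each culture comparison.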
